A study of Mus musculus with 24 samples.

Results

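The 60 protein-coding genes described here encode the amino acid transporters of 7 solute carrier (SLC) families, followed in cultured mouse macrophages across 8 groups. They are the genes of families Slc1, Slc3, Slc6, Slc7, Slc36, Slc38 and Slc43 in the deposited table, taken by symbol, with the cystine carrier gene Slc7a11 left out. The table lists 54532 genes, of which 22046 are protein-coding. By family, the 60 comprise 19 genes of Slc6, 14 of Slc7, 11 of Slc38, 7 of Slc1, 4 of Slc36, 3 of Slc43 and 2 of Slc3. The rule used gene symbol and biotype and no measured value, but it was chosen with earlier results of these data known.

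Amino acids cross membranes mostly through carriers, and each carrier family has its own driving force. Slc1, Slc6 and several Slc38 proteins couple uptake to sodium, Slc36 proteins to protons, and most Slc7 light chains exchange amino acids while bound to the heavy chain encoded by Slc3a2 or Slc3a1. Slc43 proteins let large neutral amino acids flow down their gradient. In macrophages, arginine uptake by the cationic carriers feeds nitric oxide synthase and arginase, glutamine feeds the citric acid cycle, and carriers of the lysosome return amino acids from digested protein to the cytosol, where they are read by the kinase complex mTORC1.

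All cells were macrophages grown from tibial bone marrow of C57BL/6 mice aged 2 to 3 months, differentiated with the macrophage growth factor CSF-1 and kept without serum for about 16 hours before use. Mice were Smad2 fl/fl, Smad2 fl/fl with LyzM-Cre (called MyS2KO), Smad3 fl/fl, or Smad3 fl/fl with LyzM-Cre (called MyS3KO). LyzM-Cre expresses Cre recombinase from the lysozyme gene of myeloid cells, and neither set of fl/fl controls carries it, so Cre itself and the loss of a Smad cannot be told apart. Cells of each genotype were left untreated or given TGF-β1 at 10 ng/ml for 4 hours, with 3 libraries in each of the 8 groups. TGF-β1 is a cytokine whose receptors phosphorylate the transcription factors SMAD2 and SMAD3. The labels do not say whether replicates came from separate mice, so p-values measure the spread between these libraries, which may be technical.

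Reads assigned to genes came to 16868501 to 24918582 per library. Macrophage genes were high throughout, with Adgre1, which encodes the surface marker F4/80, at 8281 to 15908 CPM (counts scaled to library size). Several defining genes of other lineages were at 0 reads in every library, among them Cd3e, Tpsb2, Fcer1a and Cd209a. Others did read, with Lck at up to 0.755, Cd79b 2.28 and Ms4a1 3.80 CPM. Summed neutrophil markers read 0.954 to 2.23 CPM in untreated Smad2 fl/fl and 4.37 to 6.94 CPM in untreated MyS2KO. They read 2.35 to 14.9 CPM in untreated Smad3 fl/fl and 9.69 to 16.8 CPM in untreated MyS3KO. With TGF-β1 the sums were 0.705 to 2.19, 4.11 to 5.04, 2.80 to 15.9 and 9.87 to 13.5 CPM in that order. Of the 5 dendritic cell markers, Xcr1 read 13.8 to 38.5 CPM and the others besides Cd209a at most 0.892 CPM. Summed, that list read 31.1 to 38.9 CPM in untreated and 18.4 to 24.3 CPM in treated Smad3 fl/fl libraries, without overlap, and 13.98 to 37.8 CPM in the other groups. Of the 5 endothelial markers, Kdr lay between 14.9 and 142 CPM, Pecam1 between 6.99 and 22.9 and Cdh5 between 4.87 and 13.7 CPM. Emcn and Tek reached at most 0.336 CPM. Summed over the list, endothelial markers read 104 to 132 CPM in untreated and 77.7 to 88.4 CPM in treated Smad2 fl/fl libraries. In MyS2KO the sum was 139 to 168 CPM untreated and 102 to 118 CPM treated. It was 42.0 to 120.1 and 32.5 to 64.3 CPM in Smad3 fl/fl, and 76.5 to 138 and 48.5 to 100.4 CPM in MyS3KO libraries. The part of these markers of other lineages in the results was not tested. In such bulk libraries, fewer cells of a type and less RNA per cell cannot be told apart.

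The deleted genes were read first. Smad3 averaged 424 ± 48.2 CPM (SD, n = 3) in untreated Smad3 fl/fl and 184 ± 24.0 CPM in untreated MyS3KO libraries. With TGF-β1 it averaged 415 ± 23.1 and 268 ± 19.8 CPM. In the Smad2 line, whose labels name no Smad3 allele, Smad3 averaged only 41.5 ± 3.97 CPM in untreated Smad2 fl/fl and 31.3 ± 4.19 CPM in untreated MyS2KO libraries, and 57.2 ± 8.39 and 49.4 ± 3.12 CPM with TGF-β1. Smad3 reads were thus fewer in MyS3KO than in Smad3 fl/fl libraries but more than in either Smad2-line genotype (log2 3.35 ± 0.15 between the untreated fl/fl groups, adjusted p = 1.12e-12, and 2.56 ± 0.14 between the untreated Cre groups, adjusted p = 9.14e-11). A comparison of MyS3KO with Smad3 fl/fl is therefore one of the labelled genotypes, and these counts do not show how much functional Smad3 either holds. Smad2 averaged 42.2 ± 2.98 CPM in untreated Smad2 fl/fl libraries and 40.4 ± 2.90 CPM in the libraries labelled MyS2KO. Loss of single exons cannot be read from gene totals, so these values are no check of the Smad2 label. Ribosomal protein genes took 1.09% ± 0.27 (SD, n = 3) of reads in untreated and 1.01% ± 0.09 in treated Smad3 fl/fl libraries, against group means of 1.71% to 1.99% elsewhere. That difference moves with every comparison of Smad3 fl/fl with another genotype, and its part in them was not tested. On the first principal component, which held 32.7% of the variance, untreated Smad3 fl/fl replicate 3 lay at 6.93 and the other 5 Smad3 fl/fl libraries at 63.8 to 83.1.

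Of the 60 transporter genes, 29 had enough reads for the test across all 14261 genes that passed the count filter, 19 had 1 to 119 reads in all 24 libraries together, and 12 had none. The 12 without a read were Slc1a6, Slc1a7, Slc6a2, Slc6a3, Slc6a5, Slc6a11, Slc6a18, Slc7a9, Slc7a10, Slc7a12, Slc38a5 and Slc38a8. They include the carriers of noradrenaline (Slc6a2) and dopamine (Slc6a3), the neuronal glycine carrier Slc6a5, and Slc7a9, the kidney cystine light chain. Its heavy chain gene, Slc3a1, had 24 reads. Coverage differed by family: 9 of 14 Slc7, 7 of 11 Slc38, 3 of 4 Slc36 and 2 of 3 Slc43 genes were testable, against 4 of 19 Slc6 genes.

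Between genes, levels were compared as FPKM, which divides by transcript length. Slc6a6, the taurine carrier, was highest, with group means of 747 to 1022 FPKM. Slc3a2, the heavy chain shared by the Slc7 exchangers, came next at 604 to 799 FPKM, overlapping the range of Slc6a6. Slc43a2, a facilitative carrier of leucine and other large neutral amino acids, had group means of 139 to 426 FPKM. Slc7a8, a light chain that exchanges neutral amino acids, had 104 to 253 FPKM. Below these lay Slc38a10 at 98.6 to 152, the creatine carrier Slc6a8 at 32.3 to 203, the leucine exchanger Slc7a5 at 44.8 to 85.5 and the glutamine and alanine carrier Slc38a2 at 37.0 to 74.2 FPKM. Those 8 genes averaged 50 FPKM or more over the 24 libraries, 9 averaged 5 to 50, and 12 averaged less than 5.

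**Figure D1:**
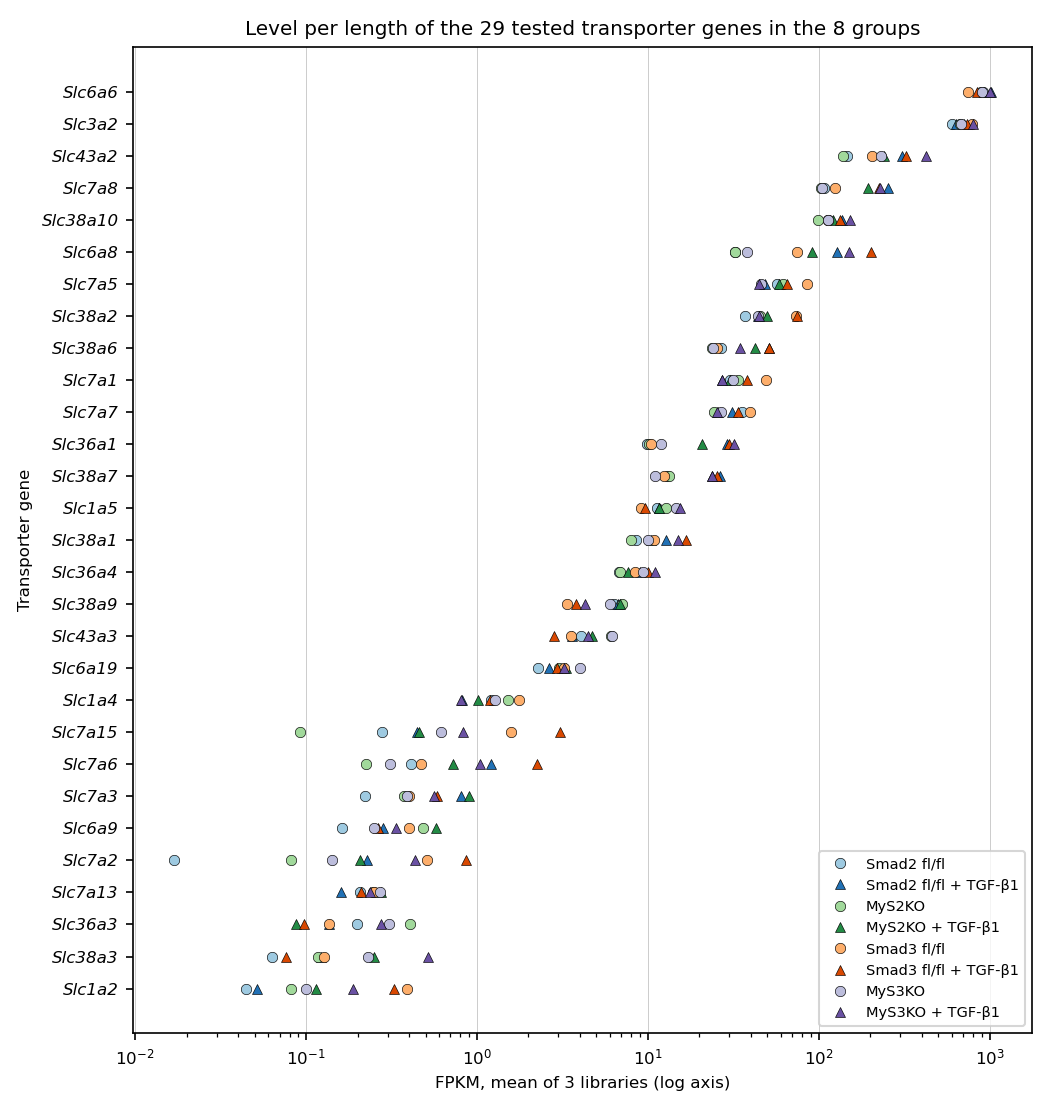
FPKM (horizontal log axis) of the 29 tested transporter genes, each symbol the mean of the 3 libraries of 1 group (circles untreated, triangles with TGF-β1). Slc6a6 and Slc3a2 head the order in every group, and Slc6a8, Slc36a1, Slc38a7, Slc7a8 and Slc43a2 show all treated means to the right of the untreated means of the same genotype.

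Slc6a6 read 1104, 1240.3 and 1076 CPM in untreated and 1205, 1216 and 1129 CPM in treated Smad2 fl/fl libraries, and 1057, 1039 and 1162 CPM untreated and 1086, 1103 and 1137 CPM treated in MyS2KO. In Smad3 fl/fl it read 771, 767 and 1044 CPM untreated and 911, 841 and 893 CPM treated, and in MyS3KO 1007, 1056 and 1084 CPM untreated and 1225, 1087 and 1113 CPM treated. Its groups overlapped with and without TGF-β1 in the first 3 genotypes, while the MyS3KO groups did not, and its log2 changes of 0.03 to 0.12 passed the test in no genotype. Slc3a2 read 488, 778 and 717 CPM untreated and 602, 664 and 679 CPM treated in Smad2 fl/fl, 706, 636 and 816 CPM untreated and 648, 673 and 920.5 CPM treated in MyS2KO, 649, 798 and 944 CPM untreated and 613, 749 and 675 CPM treated in Smad3 fl/fl, and 804, 658 and 619.6 CPM untreated and 1087, 665 and 668 CPM treated in MyS3KO. It overlapped between treated and untreated libraries in all 4 genotypes and passed the test in none of the 12 comparisons. Slc38a10, a member of the glutamine carrier family, read 173, 215 and 181 CPM untreated and 222, 222 and 200.4 CPM treated in Smad2 fl/fl, 160.0, 148 and 180.2 CPM untreated and 189, 173 and 226 CPM treated in MyS2KO, 162, 151 and 221 CPM untreated and 188, 174 and 204 CPM treated in Smad3 fl/fl, and 154, 186 and 192 CPM untreated and 249.7, 217 and 233 CPM treated in MyS3KO. It passed in none of the 12 comparisons, with its widest TGF-β1 change in MyS3KO at 0.39 ± 0.15 on the log2 scale (SE; adjusted p = 0.0955), a change that passed with the replicate number as a block (adjusted p = 0.0122).

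TGF-β1 raised 5 transporter genes in all 4 genotypes: Slc6a8, Slc7a8, Slc36a1, Slc38a7 and Slc43a2. Their log2 increases ran from 0.54 to 1.95. By genotype, TGF-β1 changed 8 of the 29 tested members in Smad2 fl/fl, all higher, where 11.1% of all tested genes were called at an adjusted p under 0.05 (edgeR quasi-likelihood test, Benjamini-Hochberg adjustment), 7.37% higher and 3.74% lower. In MyS2KO 6 were called, all higher, against 3.41% of all genes, 2.90% higher and 0.505% lower. In Smad3 fl/fl 9 were called, 8 higher and 1 lower, against 12.0% of all genes, 6.38% higher and 5.64% lower. In MyS3KO 7 were called, all higher, against 10.0% of all genes, 6.54% higher and 3.47% lower. The members' median log2 change was 0.20, 0.24, 0.03 and 0.33 in those genotypes, and that of all tested genes lay between -0.03 and 0.01. With only the 6 libraries of a genotype in the fit, calls were lost for Slc38a6 and Slc38a7 in MyS2KO, Slc7a1, Slc38a1 and Slc43a2 in Smad3 fl/fl and Slc7a6 in MyS3KO (adjusted p = 0.0504 to 0.0659). Over all genes, 343 were called higher in all 4 genotypes.

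Slc6a8, which imports creatine with sodium and chloride, rose most among the 5 in every genotype but Smad3 fl/fl, where Slc36a1 rose more. It read 47.4, 70.4 and 58.7 CPM in untreated and 210.2, 232 and 208 CPM in treated Smad2 fl/fl libraries, a log2 change of 1.88 ± 0.17 (SE; adjusted p = 2.75e-08). In MyS2KO it read 60.3, 45.5 and 65.6 CPM untreated and 159.6, 142 and 175 CPM treated, a change of 1.48 ± 0.16 (adjusted p = 2.27e-06). Every treated library lay above every untreated library of its genotype. In Smad3 fl/fl, values of 111, 149 and 112 CPM became 311, 326 and 289 CPM, a change of 1.32 ± 0.16 (adjusted p = 4.22e-06). MyS3KO went from 74.7, 57.8 and 61.5 to 283, 241 and 225 CPM, a change of 1.95 ± 0.17 (adjusted p = 1.81e-08). The untreated Smad3 fl/fl libraries were the highest of the 4 untreated groups, and that genotype had the smallest log2 rise.

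Slc36a1 encodes a proton-coupled carrier of small amino acids such as glycine, alanine and proline, found on lysosomes. In Smad2 fl/fl it stood at 23.3, 17.9 and 21.5 CPM untreated and 62.3, 57.5 and 54.2 CPM treated, a log2 change of 1.47 ± 0.14 (adjusted p = 1.04e-07). MyS2KO libraries held 20.001, 20.9 and 22.8 CPM untreated and 43.8, 43.2 and 41.0 CPM treated, a change of 1.00 ± 0.14 (adjusted p = 4.95e-05). The untreated values of the 2 genotypes overlapped, and the treated MyS2KO values all lay below the treated Smad2 fl/fl values. In Smad3 fl/fl the gene went from 21.2, 22.4 and 16.7 to 59.1, 54.6 and 46.5 CPM, a change of 1.41 ± 0.14 (adjusted p = 2.34e-07), and in MyS3KO from 20.6, 24.6 and 25.9 to 55.1, 59.8 and 68.6 CPM, a change of 1.37 ± 0.14 (adjusted p = 3e-07).

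Slc38a7, a lysosomal carrier that exports glutamine and asparagine, was at 21.8, 31.6 and 24.3 CPM in untreated and 51.4, 53.2 and 42.1 CPM in treated Smad2 fl/fl, a change of 0.92 on the log2 scale. MyS2KO read 23.5, 22.2 and 32.1 CPM untreated and 39.4, 39.7 and 58.6 CPM treated, a change of 0.82 ± 0.17 (adjusted p = 0.00505). Treated and untreated libraries did not overlap in any genotype. In Smad3 fl/fl it read 19.6, 23.9 and 24.8 CPM untreated and 40.1, 45.002 and 43.2 CPM treated, a change of 0.91 ± 0.17 (adjusted p = 0.000786), and in MyS3KO 18.8, 20.7 and 21.8 CPM untreated and 44.4, 39.6 and 44.9 CPM treated, a change of 1.07 ± 0.17 (adjusted p = 0.000165). In MyS2KO the call was lost without treated MyS2KO replicate 3 (adjusted p = 0.0585).

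Slc7a8 and Slc43a2 both move large neutral amino acids across the plasma membrane, Slc7a8 as an exchanger bound to the Slc3a2 heavy chain and Slc43a2 alone. Slc7a8 read 314, 386 and 383 CPM untreated and 723, 827 and 814 CPM treated in Smad2 fl/fl, a change of 1.13 ± 0.17 (adjusted p = 7.09e-05). It read 348, 325 and 344 CPM untreated and 658, 601 and 619 CPM treated in MyS2KO, a change of 0.89 ± 0.17 (adjusted p = 0.00254). The heavy chain gene did not pass the test in these genotypes. Slc7a8 went from 336, 428 and 379 to 596, 654 and 663 CPM in Smad3 fl/fl, a log2 change of 0.74 (adjusted p = 0.052 without Smad3 fl/fl replicate 3 in both treatments), and from 454, 273 and 273 to 888, 629 and 605 CPM in MyS3KO, a change of 1.09 ± 0.17 (adjusted p = 0.000129). Slc43a2 read 352, 357 and 318 CPM untreated and 713, 682 and 636 CPM treated in Smad2 fl/fl, a change of 0.98 ± 0.12 (adjusted p = 3.5e-06), and 323, 284 and 352 CPM untreated and 543, 511 and 581 CPM treated in MyS2KO, a change of 0.77. All 6 treated libraries of those genotypes exceeded all 6 untreated ones. In Smad3 fl/fl Slc43a2 read 433, 486 and 405 CPM untreated and 677, 659 and 590.0 CPM treated, a change of 0.54, and in MyS3KO 536, 478 and 516 CPM untreated and 1052, 834 and 873 CPM treated, a change of 0.85. The antisense gene Gm45606 overlaps Slc43a2, and whether reads were counted by strand is not given in the sources used here.

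**Figure D2:**
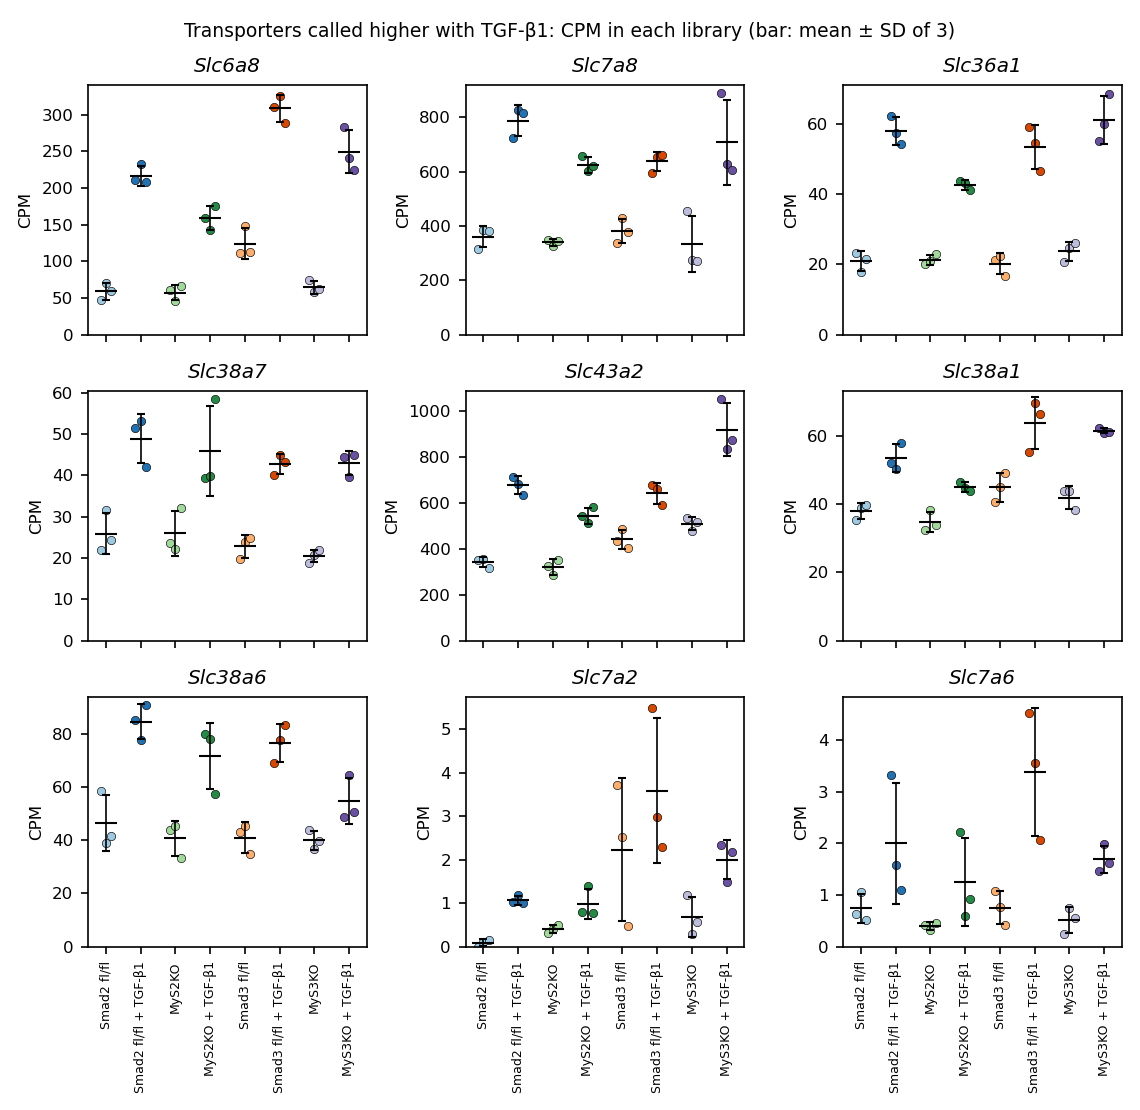
CPM (vertical axis, from 0) in each library for the 9 transporter genes that TGF-β1 raised in at least 1 genotype. Each point is 1 library and each bar the mean ± SD of 3, for the 8 groups along the horizontal axis. Slc6a8, Slc7a8, Slc36a1, Slc38a7 and Slc43a2 stand higher with TGF-β1 in all 4 genotypes, without overlap.

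Another 4 members rose in some genotypes. Slc38a6, of the glutamine carrier family, read 58.5, 38.9 and 41.7 CPM untreated and 85.3, 77.5 and 90.7 CPM treated in Smad2 fl/fl, a log2 change of 0.86. It read 43.7, 45.2 and 33.2 CPM untreated and 79.9, 77.9 and 57.5 CPM treated in MyS2KO, a change of 0.82 ± 0.17 (adjusted p = 0.00482), and 42.97, 45.4 and 34.6 CPM untreated and 69.0, 77.5 and 83.1 CPM treated in Smad3 fl/fl, a change of 0.90 ± 0.17 (adjusted p = 0.000755). In MyS3KO, 43.7, 36.5 and 39.7 CPM became 48.9, 64.7 and 50.7 CPM, a change of 0.46 ± 0.17 that did not pass (adjusted p = 0.103), although it did with the replicate number as a block (0.45, adjusted p = 0.0347). The difference between the Smad3 fl/fl and MyS3KO responses did not pass either (log2 difference -0.44 ± 0.24, adjusted p = 0.728). In MyS2KO the Slc38a6 call was lost without treated MyS2KO replicate 2 (adjusted p = 0.0543).

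Slc38a1, a sodium-coupled glutamine importer, read 35.2, 38.9 and 39.9 CPM untreated and 52.1, 50.2 and 58.0 CPM treated in Smad2 fl/fl, 32.4, 38.2 and 33.8 CPM untreated and 46.5, 44.7 and 43.7 CPM treated in MyS2KO, 40.7, 44.95 and 49.2 CPM untreated and 55.3, 69.7 and 66.4 CPM treated in Smad3 fl/fl, and 43.9, 43.7 and 38.1 CPM untreated and 62.4, 60.9 and 61.3 CPM treated in MyS3KO. Treated libraries lay above untreated ones in each genotype, with log2 changes of 0.49, 0.37, 0.50 and 0.55. All but the MyS2KO change passed the test (adjusted p = 0.0925 there). With the replicate number as a block, the MyS2KO change passed as well (0.37, adjusted p = 0.0268). In Smad2 fl/fl the call was lost without treated Smad2 fl/fl replicate 3 (adjusted p = 0.0614), and without a filter on low counts it was lost in Smad2 fl/fl, Smad3 fl/fl and MyS3KO (adjusted p = 0.102, 0.073 and 0.0594).

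Slc7a6, a light chain that exchanges cationic for neutral amino acids, was scarce. It had 27, 17 and 9 reads in untreated and 100, 81 and 37 reads in treated Smad3 fl/fl libraries, or 1.08, 0.766 and 0.423 CPM untreated and 4.53, 3.56 and 2.07 CPM treated, a log2 change of 2.15 ± 0.49 (adjusted p = 0.00431). In MyS3KO it read 0.238, 0.740 and 0.561 CPM untreated and 1.47, 1.98 and 1.62 CPM treated, a change of 1.69 ± 0.53 (adjusted p = 0.0427). That second call rested on each library, since it was lost without untreated MyS3KO replicate 1, 2 or 3 or treated MyS3KO replicate 1, 2 or 3 (adjusted p = 0.0516 to 0.192). In Smad2 fl/fl it read 0.637, 1.06 and 0.519 CPM untreated and 3.32, 1.59 and 1.096 CPM treated, and in MyS2KO 0.424, 0.315 and 0.453 CPM untreated and 2.22, 0.594 and 0.930 CPM treated, and neither change passed (log2 1.44 and 1.63, adjusted p = 0.0689 and 0.145). The Smad2 fl/fl change passed without a filter on low counts (adjusted p = 0.0383), with the block (adjusted p = 0.0204) and without treated replicate 3 (1.69, adjusted p = 0.0498). Treated and untreated libraries did not overlap in any of the 4 genotypes.

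Slc7a2 encodes an arginine carrier that supplies nitric oxide synthase and arginase in macrophages. It had 0, 2 and 3 reads in untreated and 22, 27 and 19 reads in treated Smad2 fl/fl libraries, which is 0, 0.106 and 0.156 CPM untreated and 1.03, 1.19 and 0.992 CPM treated and a fitted log2 change of 3.64 ± 0.80 (adjusted p = 0.00338). MyS2KO read 0.303, 0.405 and 0.503 CPM untreated and 0.796, 1.39 and 0.783 CPM treated, and MyS3KO 1.19, 0.296 and 0.561 CPM untreated and 2.33, 1.49 and 2.17 CPM treated, without overlap, but neither change passed (adjusted p = 0.46 and 0.102). That in MyS3KO passed without a filter on low counts (1.53, adjusted p = 0.0234) and with the replicate number as a block (1.66, adjusted p = 0.0191). Smad3 fl/fl libraries held more, with 3.71, 2.52 and 0.470 CPM untreated and 5.48, 2.99 and 2.29 CPM treated, and overlapped. The lowest untreated value there was replicate 3, the library that stood apart on the first principal component.

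The 1 member called lower with TGF-β1 was Slc7a1 in Smad3 fl/fl. This gene encodes the widely expressed arginine and lysine carrier. It read 116, 112 and 130.4 CPM untreated and 78.6, 93.2 and 82.3 CPM treated, a log2 change of -0.49 ± 0.14 (adjusted p = 0.0179), without overlap. The call was lost without untreated Smad3 fl/fl replicate 3 or treated Smad3 fl/fl replicate 1 or 3 (adjusted p = 0.0516 to 0.0977). Slc7a1 stood at 75.6, 82.5 and 79.8 CPM untreated and 54.6, 66.0 and 78.9 CPM treated in Smad2 fl/fl, 81.5, 82.4 and 96.6 CPM untreated and 71.7, 73.4 and 84.1 CPM treated in MyS2KO and 87.9, 76.2 and 70.1 CPM untreated and 74.7, 57.8 and 63.7 CPM treated in MyS3KO, with log2 changes of -0.25, -0.18 and -0.25 that did not pass.

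Slc7a5, the light chain that exchanges glutamine for leucine, read 102, 102 and 163 CPM untreated and 74.9, 86.8 and 92.1 CPM treated in Smad3 fl/fl, a change of -0.54 ± 0.19 (adjusted p = 0.0717). It passed without a filter on low counts (adjusted p = 0.0238) and without untreated Smad3 fl/fl replicate 1 or 2 (adjusted p = 0.0321 and 0.0351). With the replicate number as a block it passed as well (-0.50, adjusted p = 0.00517), and so did that of Slc1a4, an exchanger of alanine, serine and cysteine (-0.69, adjusted p = 0.0229). Slc1a4 had log2 changes of -0.65, -0.60, -0.69 and -0.69 in Smad2 fl/fl, MyS2KO, Smad3 fl/fl and MyS3KO, none of which passed in the unblocked edgeR fit (adjusted p = 0.058 in Smad3 fl/fl). With the block Slc1a4 also passed in Smad2 fl/fl (adjusted p = 0.0402) and MyS3KO (adjusted p = 0.0334). Without MyS3KO replicate 1 in both treatments it passed in MyS3KO as well (adjusted p = 0.0453). The DESeq2 test called it in Smad3 fl/fl (adjusted p = 0.0309) and MyS3KO (adjusted p = 0.0399), and so did edgeR in Smad3 fl/fl with the filter of 1 CPM in 3 libraries (adjusted p = 0.0498) or without untreated replicate 1 or treated replicate 2 (adjusted p = 0.0497 and 0.0431), and in MyS3KO without treated replicate 1 (adjusted p = 0.0383). Its libraries, at 4.22 to 7.89 CPM untreated and 2.56 to 5.10 CPM treated over all genotypes, did not overlap within any genotype. Slc7a5 read 77.5, 99.8 and 85.3 CPM untreated and 57.7, 70.4 and 79.97 CPM treated in Smad2 fl/fl, 90.2, 84.0 and 104 CPM untreated and 69.7, 82.1 and 112 CPM treated in MyS2KO, and 74.9, 63.9 and 60.6 CPM untreated and 74.1, 58.7 and 57.0 CPM treated in MyS3KO, overlapping in each.

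**Figure D3:**
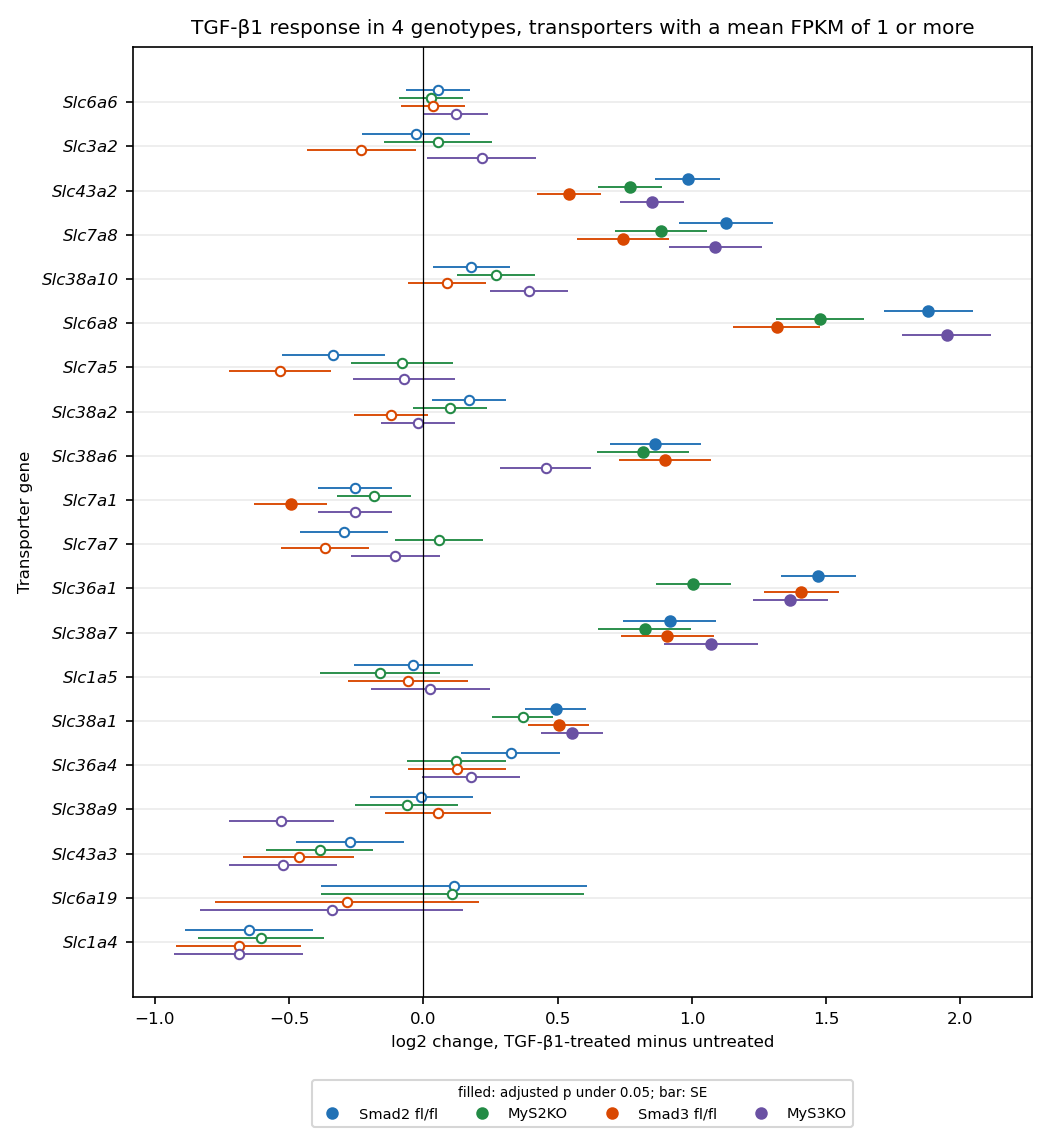
Log2 change with TGF-β1 (horizontal axis) in the 4 genotypes for the 20 tested transporter genes with a mean FPKM of 1 or more. Points are fitted changes, bars are SE, and filled points passed the test. The points of Slc6a8, Slc36a1, Slc7a8, Slc38a7 and Slc43a2 are filled in all 4 genotypes, while Slc6a6, Slc3a2, Slc7a5 and Slc38a2 have no filled point.

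Promoter sequence is shown for the members that rose together in all 4 genotypes and have an entry in the RefSeq promoter table for GRCm38.p6, the build of the files. That table matched 42 of the 60 members, and Slc6a8 has no entry. Each sequence starts 250 bases before the RefSeq start site and ends at that site or, where GENCODE begins the gene earlier, before the GENCODE start. The stretches are chr14:54781947-54782136 on the minus strand, chr11:75531444-75531693 on the plus strand, chr11:55204090-55204339 on the plus strand and chr8:95853540-95853741 on the minus strand, and capitals mark a motif match.
Slc7a8: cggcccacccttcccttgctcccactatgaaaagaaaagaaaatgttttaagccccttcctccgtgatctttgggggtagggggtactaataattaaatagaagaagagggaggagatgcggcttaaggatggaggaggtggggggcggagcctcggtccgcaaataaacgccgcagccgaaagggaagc
Slc43a2: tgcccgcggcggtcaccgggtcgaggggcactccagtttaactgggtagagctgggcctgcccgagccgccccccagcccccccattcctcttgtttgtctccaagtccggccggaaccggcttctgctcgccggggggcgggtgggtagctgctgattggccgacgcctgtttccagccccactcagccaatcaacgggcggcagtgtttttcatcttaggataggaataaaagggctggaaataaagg
Slc36a1: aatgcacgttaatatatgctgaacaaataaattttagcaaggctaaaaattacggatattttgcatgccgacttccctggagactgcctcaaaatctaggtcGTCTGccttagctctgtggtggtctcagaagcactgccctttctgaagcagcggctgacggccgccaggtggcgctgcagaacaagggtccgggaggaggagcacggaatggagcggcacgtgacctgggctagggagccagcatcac
Slc38a7: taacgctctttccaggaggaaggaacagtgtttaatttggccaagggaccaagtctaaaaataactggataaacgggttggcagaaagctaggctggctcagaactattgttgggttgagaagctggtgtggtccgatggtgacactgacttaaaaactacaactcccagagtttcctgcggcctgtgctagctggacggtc
The motifs searched on both strands of the 250 bases were the SMAD box CAGAC, its palindrome GTCTAGAC, the AP-1 site TGANTCA, the element TGATGNAA bound by ATF4 with C/EBP proteins, and TCACGTGA, the core of the element bound by the lysosomal regulators TFEB and TFE3. Slc36a1 held 1 CAGAC match, as GTCTG 148 to 144 bases before its start site. Slc38a7 held 1 AP-1 match, TGATTCA, 45 to 39 bases before its RefSeq start site, which GENCODE places within the gene and which is therefore not in the printed stretch. The windows of Slc7a8 and Slc43a2 held none of the 5 motifs. CAGAC occurred in 42.2% of all 32851 windows of this length and in 36 of the 63 windows of members, and the AP-1 site in 6.75% of all windows and 9 of 63. TGATGNAA occurred in 3.45% of all windows and 3 of 63, TCACGTGA in 0.785% and 0 of 63, and GTCTAGAC in 0.167% and 0 of 63. A match describes the letters and is not a measured binding site.

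Between the libraries labelled MyS2KO and Smad2 fl/fl, no transporter gene passed the test. Among the 29 members, edgeR called 0 between untreated MyS2KO and Smad2 fl/fl libraries, where 0.0701% of all tested genes were called, 0.0351% in each direction. With TGF-β1 it called 0 members, where 0.421% of all genes were called, 0.189% higher and 0.231% lower. At an unadjusted p under 0.05 the numbers were 3 and 5 of 29, against 1254 and 1313 of all 14261 tested genes, and DESeq2 called 0 in both. The lowest adjusted p among members was that of Slc7a7 untreated and of Slc36a1 with TGF-β1. Slc7a7, a light chain that exchanges cationic for neutral amino acids, read 39.3, 53.5 and 36.4 CPM in untreated Smad2 fl/fl and 32.0, 26.8 and 26.9 CPM in untreated MyS2KO, without overlap (log2 -0.59 ± 0.16, adjusted p = 0.218). With TGF-β1 the log2 difference of Slc36a1 was -0.44 ± 0.14 (adjusted p = 0.2), that of Slc6a8 -0.45 ± 0.16 and that of Slc43a2 -0.31 ± 0.12, each without overlap between the genotypes. The 95% intervals of those differences ran from -0.73 to -0.16 for Slc36a1, from -0.78 to -0.12 for Slc6a8 and from -0.56 to -0.07 for Slc43a2. Also without overlap with TGF-β1, Slc38a1 differed by -0.25, while Slc43a3 was higher in MyS2KO by 0.44 (adjusted p = 0.501 for each). Untreated, Slc43a3 was higher by 0.55 (adjusted p = 0.381) and Slc7a2, with few reads, by 2.25 (adjusted p = 0.445), both without overlap.

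The difference in TGF-β1 response between MyS2KO and Smad2 fl/fl was tested directly as an interaction. No member passed with edgeR, where 0.00701% of all genes did, and DESeq2 called 0 too. At an unadjusted p under 0.05 there were 2 of the 29 members, against 489 of all 14261 tested genes. The 2 were Slc36a1 with a log2 difference of -0.47 ± 0.20 and Slc7a2 with -2.37 ± 1.06. Between MyS3KO and Smad3 fl/fl the same test called 0 members with either tool, against 0.0210% of all genes. At an unadjusted p under 0.05 it had 2 of 29 members, against 917 of all 14261 genes. Those members were Slc6a8, whose log2 response was larger by 0.63 ± 0.23 in MyS3KO (95% interval 0.16 to 1.102, adjusted p = 0.728), and Slc38a9, with -0.58 ± 0.28. For the other genes raised in all 4 genotypes the 95% intervals of the Smad3 interaction were -0.16 to 0.85 for Slc7a8, -0.44 to 0.36 for Slc36a1, -0.34 to 0.67 for Slc38a7 and -0.04 to 0.66 for Slc43a2.

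MyS3KO and Smad3 fl/fl libraries differed in 9 of the 29 members without TGF-β1, 3 higher and 6 lower in MyS3KO, where 17.7% of all tested genes were called, 8.37% higher and 9.38% lower. With TGF-β1, 9 were called, 5 higher and 4 lower, against 28.2% of all genes, 15.0% higher and 13.2% lower. The members' median log2 difference was -0.10 untreated and 0.15 with TGF-β1, that of all tested genes -0.03 and 0.01. Slc1a5 and Slc43a3 were higher, and Slc7a1 and Slc38a2 lower, in both. The untreated count was 1 when only these 6 libraries entered the fit, with Slc6a8 the gene that kept its call. Without a filter on low counts, the calls of Slc7a7 untreated and of Slc43a3, Slc7a1 and Slc6a6 with TGF-β1 were lost (adjusted p = 0.0503 to 0.168). That of Slc7a1 with TGF-β1 was also lost with only the groups compared (adjusted p = 0.0611). The count with TGF-β1 fell to 4 without treated Smad3 fl/fl replicate 2 and to 4 without treated MyS3KO replicate 3.

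Of the importers, Slc38a2, which takes up glutamine and alanine with sodium, was lower in MyS3KO. It read 354, 432 and 392 CPM in untreated Smad3 fl/fl and 286, 224 and 208 CPM in untreated MyS3KO, a log2 difference of -0.71. With TGF-β1 it read 350.2, 383 and 349.5 CPM in Smad3 fl/fl and 254, 243 and 211 CPM in MyS3KO, a difference of -0.61 ± 0.14 (adjusted p = 0.0031). The Smad3 fl/fl libraries were also above all Smad2-line libraries, which read 196, 198 and 244 CPM in untreated Smad2 fl/fl, 214, 225 and 278 treated, and 261, 261 and 247 CPM untreated and 299, 278 and 247 CPM treated in MyS2KO. Slc7a1, given above, was also lower in MyS3KO, with differences of -0.61 untreated and -0.37 with TGF-β1. Its untreated Smad3 fl/fl libraries lay above all Smad2-line libraries, and its treated ones did not. The second was lost without treated Smad3 fl/fl replicate 1, 2 or 3 or treated MyS3KO replicate 2 or 3 (adjusted p = 0.0667 to 0.179).

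Slc7a5 was lower in untreated MyS3KO, with the library values given above and a log2 difference of -0.88 ± 0.19 (adjusted p = 0.0029). With TGF-β1 the difference was -0.42 ± 0.19 and did not pass (adjusted p = 0.102), except with only the groups compared (adjusted p = 0.0493). The highest Slc7a5 value, 163 CPM, belonged to untreated Smad3 fl/fl replicate 3. Slc6a8 was lower in untreated MyS3KO, with a difference of -0.94 ± 0.16 (adjusted p = 0.000438), with no overlap, and differed by -0.31 ± 0.16 with TGF-β1 (adjusted p = 0.154). Slc7a7 read 42.2, 40.9 and 48.7 CPM in untreated Smad3 fl/fl and 28.1, 29.7 and 32.7 CPM in untreated MyS3KO, a difference of -0.54 without overlap. With TGF-β1 it read 33.3, 35.9 and 33.0 CPM in Smad3 fl/fl and 34.8, 21.7 and 27.9 CPM in MyS3KO, which overlapped, and the treated Smad2 fl/fl and MyS2KO libraries read 36.1, 38.5 and 30.5 and 27.8, 27.2 and 34.1 CPM. The untreated Slc7a7 call was lost without untreated Smad3 fl/fl replicate 1 or 3 or untreated MyS3KO replicate 1, 2 or 3 (adjusted p = 0.0516 to 0.0918). The gene overlaps Oxa1l on the other strand. Slc7a2 was also called lower, with a difference of -1.74 ± 0.58 on the log2 scale (adjusted p = 0.0415), although its library values, given above, overlapped. That call was lost without untreated Smad3 fl/fl replicate 1 or 2 or untreated MyS3KO replicate 2 or 3 (adjusted p = 0.113 to 0.249).

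Higher in MyS3KO was Slc1a5, the sodium-dependent exchanger through which many cells take up glutamine. It read 10.7, 8.20 and 12.3 CPM in untreated Smad3 fl/fl and 12.0, 20.2 and 17.97 CPM in untreated MyS3KO, which overlapped, a log2 difference of 0.69. With TGF-β1 it read 9.43, 9.85 and 10.6 CPM in Smad3 fl/fl and 12.3, 19.4 and 19.3 CPM in MyS3KO without overlap, a difference of 0.77 ± 0.22 (adjusted p = 0.0145). Replicate 1 of MyS3KO was the lowest MyS3KO library in both treatments. The untreated call was lost without untreated Smad3 fl/fl replicate 1 or 2 or untreated MyS3KO replicate 2 or 3 (adjusted p = 0.0802 to 0.171), and the treated call without treated Smad3 fl/fl replicate 2 or treated MyS3KO replicate 2 or 3 (adjusted p = 0.0538 to 0.0667). For Slc1a5 the Smad2 line read 16.2, 12.4 and 12.6 CPM untreated and 14.6, 12.3 and 13.3 CPM treated in Smad2 fl/fl and 11.9, 13.9 and 20.5 CPM untreated and 11.9, 15.5 and 14.1 CPM treated in MyS2KO.

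Slc43a3, which carries purine nucleobases despite its family name, read 3.83, 3.83 and 5.07 CPM in untreated Smad3 fl/fl and 8.59, 6.96 and 6.88 CPM in untreated MyS3KO, a difference of 0.82 ± 0.20 (adjusted p = 0.00735). With TGF-β1 it read 2.49, 3.21 and 3.52 CPM in Smad3 fl/fl and 5.58, 5.16 and 4.86 CPM in MyS3KO, a difference of 0.76 ± 0.21 (adjusted p = 0.0102). Neither pair of groups overlapped, and the treated call was lost without treated Smad3 fl/fl replicate 1 (adjusted p = 0.054). Smad2 fl/fl libraries read 5.21, 4.29 and 6.07 CPM untreated and 4.30, 4.14 and 4.44 CPM treated and MyS2KO libraries 8.30, 6.53 and 8.05 CPM untreated and 5.12, 5.003 and 7.34 CPM treated.

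Slc38a9, the lysosomal carrier that reports arginine to mTORC1, read 8.70, 7.16 and 8.22 CPM in untreated Smad3 fl/fl and 13.8, 12.0 and 17.9 CPM in untreated MyS3KO, a difference of 0.86 ± 0.20 (adjusted p = 0.00434). With TGF-β1 the values, 8.93, 5.63 and 10.5 CPM in Smad3 fl/fl and 8.71, 11.9 and 9.67 CPM in MyS3KO, overlapped and the difference did not pass (log2 0.27 ± 0.20, adjusted p = 0.306). Among the untreated groups the Smad3 fl/fl libraries were the low ones. With TGF-β1, both the Smad3 fl/fl and the MyS3KO libraries lay below all Smad2-line libraries. Smad2 fl/fl libraries read 19.4, 13.9 and 15.8 untreated and 14.6, 17.3 and 16.9 CPM treated, and MyS2KO libraries 17.3, 18.1 and 18.7 CPM untreated and 18.4, 16.9 and 16.4 CPM treated.

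Slc6a6, Slc38a3, Slc38a6, Slc43a2 and Slc7a15 were called between MyS3KO and Smad3 fl/fl with TGF-β1 and not without it, while the interaction test above called none of them. Without untreated MyS3KO replicate 1 the untreated Slc7a15 difference went from -1.24 to -2.43 and passed (adjusted p = 0.0102), and that of Slc7a8 went from -0.19 to -0.48 and passed (adjusted p = 0.0327). Slc6a6 was higher by 0.37 in MyS3KO, without overlap, a call lost without treated Smad3 fl/fl replicate 2 or 3 or treated MyS3KO replicate 1 or 3 (adjusted p = 0.0516 to 0.103). Untreated, its difference of 0.29 did not pass (adjusted p = 0.101), but it passed with DESeq2 (adjusted p = 0.0283) and without untreated Smad3 fl/fl replicate 3 (0.46, adjusted p = 0.00392). Slc43a2 was higher by 0.52 and Slc38a6 differed by -0.48 on the log2 scale, both without overlap. The Slc38a6 call was lost without treated Smad3 fl/fl replicate 1, 2 or 3 or treated MyS3KO replicate 1 or 3 (adjusted p = 0.0572 to 0.148).

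The remaining calls with TGF-β1 were those of Slc38a3, which rests on few reads, and of Slc7a15, with up to 121 reads in a library. Slc38a3, a sodium-coupled glutamine carrier best known from liver and kidney, had 0, 3 and 3 reads in treated Smad3 fl/fl and 14, 10 and 19 reads in treated MyS3KO, a fitted log2 difference of 2.82 ± 0.80 (adjusted p = 0.0125). Untreated, it had 4, 6 and 2 and 4, 12 and 3 reads, and in the Smad2 line 2, 2 and 2 reads in untreated and 4, 4 and 3 in treated Smad2 fl/fl, and 4, 5 and 1 and 11, 8 and 1 in MyS2KO. Its call was lost without treated Smad3 fl/fl replicate 1 (adjusted p = 0.0604). Slc7a15 read 3.04, 5.32 and 4.03 CPM in treated Smad3 fl/fl and 1.104, 0.992 and 1.45 CPM in treated MyS3KO, without overlap, a difference of -1.79 ± 0.58 (adjusted p = 0.0259), and 2.43, 3.38 and 0.892 CPM in Smad3 fl/fl and 2.09, 0.395 and 0.421 CPM in MyS3KO untreated, which overlapped. That call was lost without treated Smad3 fl/fl replicate 2 or treated MyS3KO replicate 1, 2 or 3 (adjusted p = 0.0535 to 0.0971). Slc7a15 overlaps 5033421B08Rik on the other strand, and whether the reads of both were kept apart in counting is not given in the sources used here.

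**Figure D4:**
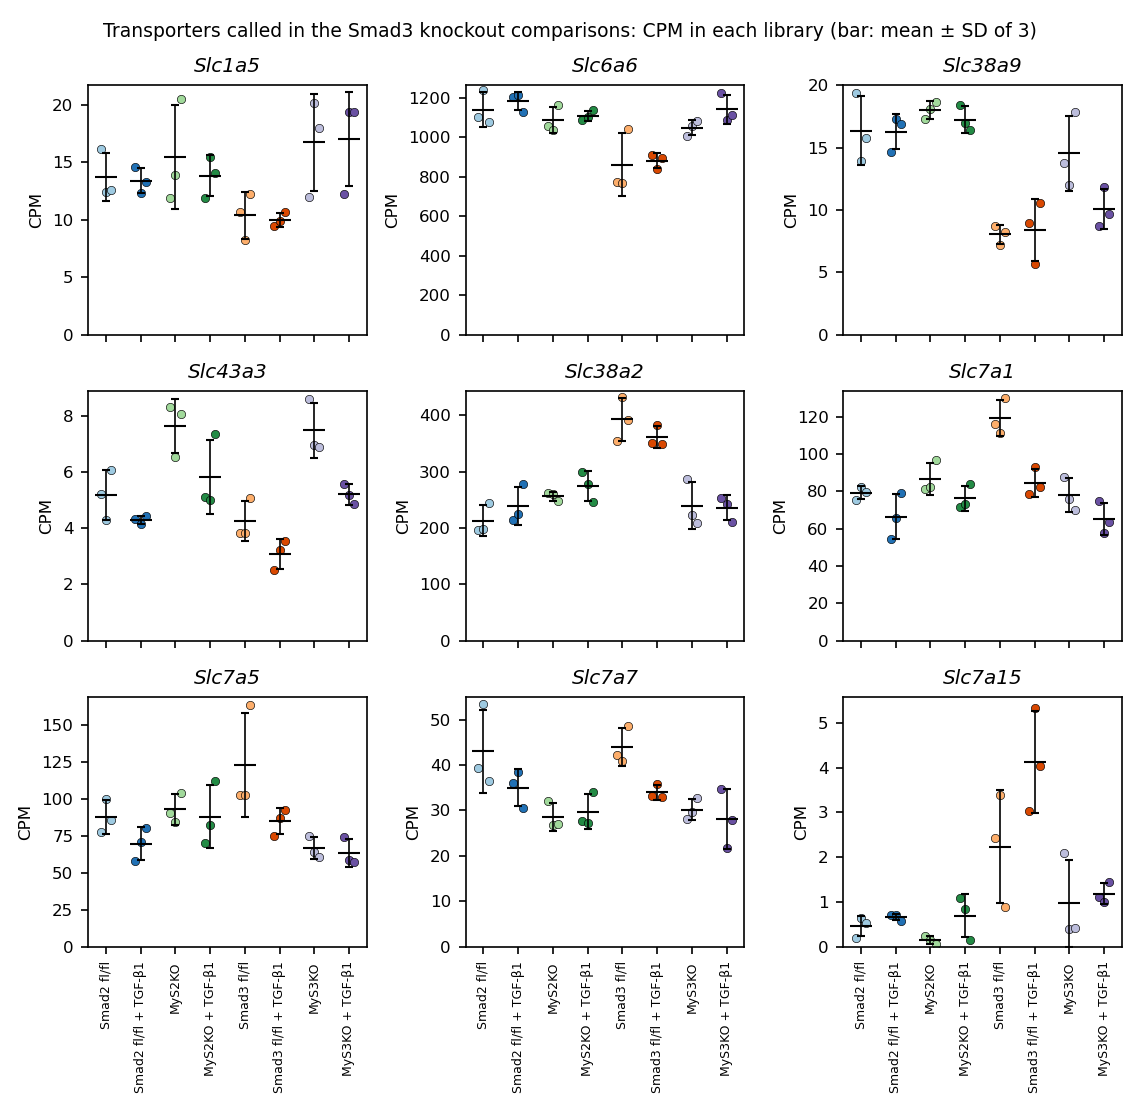
CPM (vertical axis, from 0) in each library for 9 of the transporter genes called in a Smad3 knockout comparison, with the mean ± SD of 3 as bars and the 8 groups along the horizontal axis. For Slc38a2, Slc7a1 and Slc38a9 the untreated Smad3 fl/fl libraries lie apart from the other 3 untreated groups, and MyS3KO lies nearer to the Smad2-line groups.

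The 2 sets of fl/fl controls, neither of which carries Cre, differed in 9 members without TGF-β1, 7 higher and 2 lower in Smad3 fl/fl than in Smad2 fl/fl, where 33.4% of all tested genes were called, 17.7% higher and 15.6% lower. This comparison shares the untreated Smad3 fl/fl libraries with the knockout comparison, so the values stand side by side without a test between them. Slc38a2 differed by 0.89, Slc7a1 by 0.59 and Slc6a8 by 1.07 ± 0.16 (adjusted p = 5.11e-05) between lines, against -0.71, -0.61 and -0.94 between untreated MyS3KO and Smad3 fl/fl. Slc38a9 differed by -1.03 ± 0.20 between lines (adjusted p = 0.000505), against 0.86 for the knockout. Slc7a2 differed most, by 4.70 ± 0.77 (adjusted p = 0.000113), from 5 reads summed over the untreated Smad2 fl/fl libraries. Slc7a15 differed by 2.33 ± 0.64 (adjusted p = 0.00849) and Slc1a2, the glutamate importer of astrocytes, by 2.96 ± 0.84 (adjusted p = 0.0106), the latter from 1, 2 and 2 reads in Smad2 fl/fl and 11, 20 and 14 in Smad3 fl/fl. Slc43a2 differed by 0.37 and Slc6a6 by -0.41.

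Several of these calls depended on single libraries. Slc6a6 was lost without untreated Smad2 fl/fl replicate 2 or untreated Smad3 fl/fl replicate 1 or 2 (adjusted p = 0.0598 to 0.073), and Slc43a2 without untreated Smad2 fl/fl replicate 1 or 3 or untreated Smad3 fl/fl replicate 1 or 2 (adjusted p = 0.0551 to 0.137). Slc1a2 was lost without untreated Smad2 fl/fl replicate 1 or untreated Smad3 fl/fl replicate 2 (adjusted p = 0.0517 to 0.0529), and Slc7a15 without untreated Smad3 fl/fl replicate 2 (adjusted p = 0.0556). Slc6a6 and Slc43a2 were also lost without a filter on low counts (adjusted p = 0.0689 and 0.187) and with only the groups compared (adjusted p = 0.152 and 0.136). Between the untreated knockouts, 2 members were called higher in MyS3KO than in MyS2KO, against 5.97% of all genes, 3.35% higher and 2.62% lower. Slc43a2 differed by 0.67 ± 0.12 (adjusted p = 0.00133), without overlap. Slc7a15 read 0.242, 0.135 and 0.0503 CPM in MyS2KO and differed by 2.72 ± 0.80 (adjusted p = 0.0456), a call lost without untreated MyS2KO replicate 1, 2 or 3 or untreated MyS3KO replicate 1 (adjusted p = 0.0729 to 0.293). Without that MyS3KO replicate the difference was 1.52. Slc7a15 read 0.199, 0.636 and 0.519 CPM in untreated and 0.702, 0.705 and 0.574 CPM in treated Smad2 fl/fl, and 1.08, 0.842 and 0.147 CPM in treated MyS2KO.

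**Figure D5:**
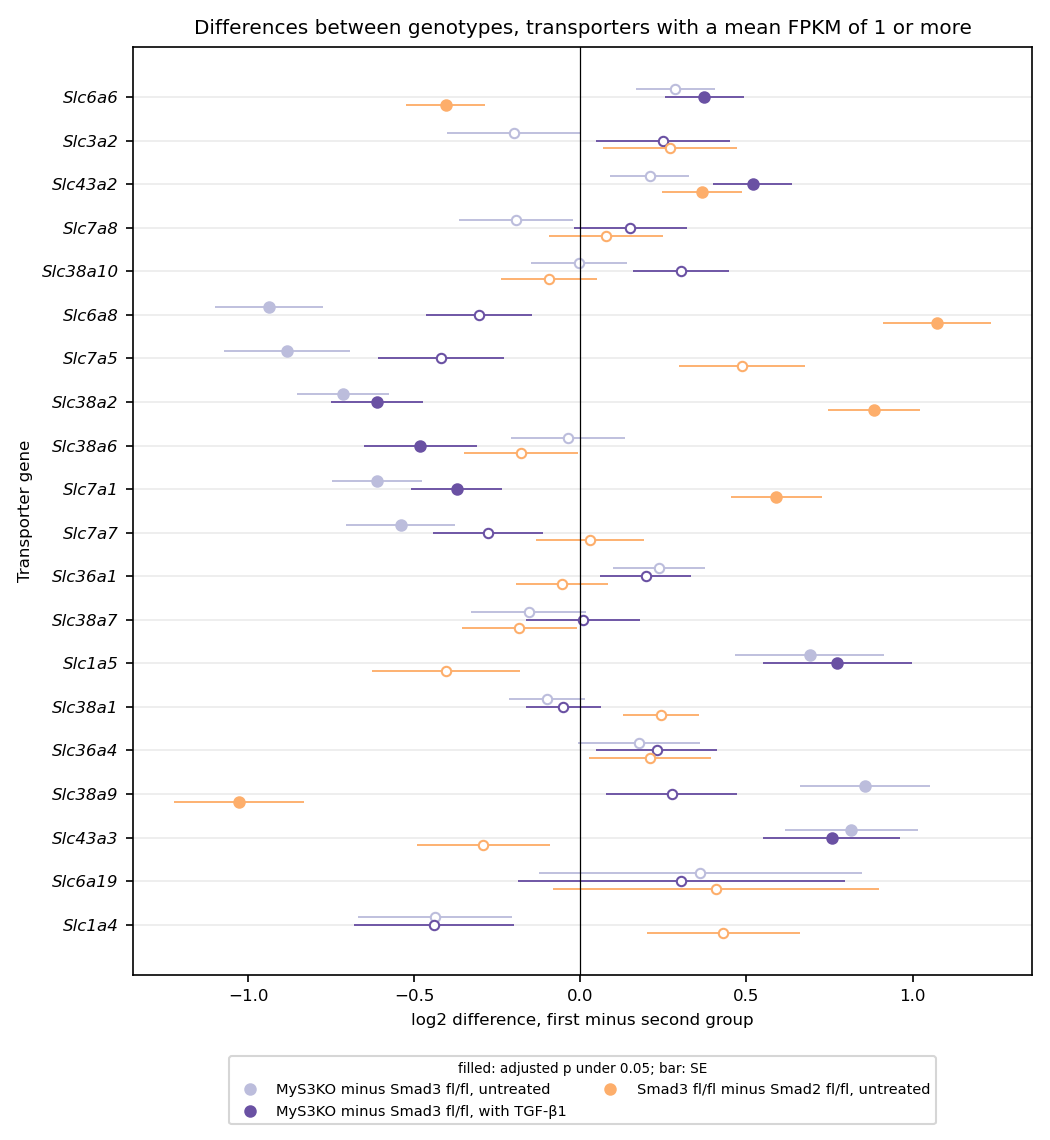
Log2 differences (horizontal axis) between MyS3KO and Smad3 fl/fl, untreated and with TGF-β1, and between untreated Smad3 fl/fl and Smad2 fl/fl, for the 20 tested transporter genes with a mean FPKM of 1 or more. Points are fitted differences, bars are SE, and filled points passed the test. The untreated knockout and line comparisons share the untreated Smad3 fl/fl libraries, and Slc6a8, Slc38a2, Slc7a1 and Slc38a9 are filled in both with opposite signs.

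The other pathway genes came from 5 lists of genes that sense, charge or use amino acids. Their counts stand beside the shares of all tested genes that were called, which with TGF-β1 were 11.1% in Smad2 fl/fl, 3.41% in MyS2KO, 12.0% in Smad3 fl/fl and 10.0% in MyS3KO, and between MyS3KO and Smad3 fl/fl 17.7% untreated and 28.2% with TGF-β1. The ATF4 list held 25 tested genes of the amino acid response. ATF4 is the factor that switches on transporters and biosynthesis when amino acids run short. The list includes Atf4 itself and the kinase gene Eif2ak4, so it is not of ATF4 targets alone. Of the 25, TGF-β1 raised 2 in Smad2 fl/fl, 0 in MyS2KO, 2 in Smad3 fl/fl and 1 in MyS3KO, and lowered 5 in Smad3 fl/fl. Eif2ak4 was 1 of the 2 raised in Smad3 fl/fl. Cebpb, which encodes a C/EBP factor, rose in Smad2 fl/fl, Smad3 fl/fl and MyS3KO by 1.19, 0.91 and 1.48. Chac1, a glutathione-degrading enzyme, Gpt2, an alanine aminotransferase, and the factor Atf5 fell in Smad3 fl/fl, with log2 changes of -1.05, -1.05 and -0.75. In untreated MyS3KO 5 of the 25 were lower than in Smad3 fl/fl and 0 higher, among them Trib3 (-0.94), Cebpg (-0.88) and Atf5 (-0.84). With TGF-β1, 2 were higher and 2 lower. The median log2 change of the list with TGF-β1 in Smad3 fl/fl was -0.41, and its median difference in untreated MyS3KO -0.39, against -0.03 and -0.03 over all genes.

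Of 34 tested genes of mTORC1 amino acid sensing, TGF-β1 lowered 3 in Smad2 fl/fl and 4 in Smad3 fl/fl, raised 2 in Smad3 fl/fl, and raised 2 and lowered 2 in MyS3KO. The 3 of 34 and 4 of 34 called in Smad2 fl/fl and MyS3KO are near the 11.1% and 10.0% of all tested genes. Bmt2, which encodes the methionine sensor SAMTOR, fell in those 3 genotypes, with log2 changes of -0.92, -0.91 and -1.53. Nprl3, of the GATOR complex that restrains mTORC1, fell as well, with changes of -0.69, -0.62 and -0.50. Between MyS3KO and Smad3 fl/fl, 2 were higher and 3 lower untreated, and 4 higher and 3 lower with TGF-β1. Lamtor2, a Ragulator subunit, was higher by 1.25 and 1.298, and Rheb, the activator of mTORC1, was lower, with differences of -0.63 and -0.79.

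Among 23 genes for cytosolic aminoacyl-tRNA synthetases and their scaffold, TGF-β1 lowered 2 in Smad2 fl/fl and 3 in Smad3 fl/fl and raised 0 in any genotype. Over all tested genes 11.1% and 12.0% were called in the fl/fl genotypes, near these shares of 2 and 3 in 23. Iars fell in both, with log2 changes of -0.32 and -0.53. Untreated MyS3KO had 2 higher and 6 lower than Smad3 fl/fl, including Eprs at -0.92, Aars at -0.77 and, higher, Wars at 0.94. With TGF-β1 2 were higher and 4 lower.

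Of 15 tested amino acid carriers outside the 7 families, TGF-β1 lowered Slc15a4, the lysosomal histidine and peptide carrier, in Smad2 fl/fl, Smad3 fl/fl and MyS3KO, with log2 changes of -0.65, -0.85 and -0.63. Ctns, the lysosomal cystine exporter, fell in Smad2 fl/fl, with a change of -0.76, and Pqlc2, the lysosomal exporter of cationic amino acids, rose in MyS3KO by 0.44. Those are all 5 calls of this list in the 4 genotypes. Of the members named above as lysosomal, Slc36a1 and Slc38a7 rose in all 4 genotypes, while Slc38a9 had log2 changes of -0.01, -0.06, 0.05 and -0.53 and passed in none. Between MyS3KO and Smad3 fl/fl, 2 of the 15 were lower untreated, including Slc16a10 (-0.50), a carrier of aromatic amino acids, and 4 higher with TGF-β1, near the 17.7% and 28.2% of all tested genes called there.

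Of 19 tested enzymes of amino acid metabolism, TGF-β1 raised 1 and lowered 1 in Smad2 fl/fl and in Smad3 fl/fl, and raised 3 in MyS3KO. The 2 of 19 called in each fl/fl genotype are near the 11.1% and 12.0% of all tested genes. Bcat2, which transaminates branched-chain amino acids, fell in the fl/fl genotypes, with log2 changes of -0.82 and -0.71, and Gldc, of the glycine cleavage system, rose by 2.25, 2.08 and 3.12 from at most 0.188 CPM on average. Between untreated MyS3KO and Smad3 fl/fl, 2 were higher and 1 lower. Arg1, the arginase of alternatively activated macrophages, was lower, with a log2 difference of -4.62 ± 0.73 (adjusted p = 0.000207), and between the untreated fl/fl groups it differed by 4.62 ± 0.73 (adjusted p = 8.08e-05). It averaged 55.7 CPM in untreated Smad3 fl/fl, 2.24 CPM in untreated MyS3KO and 2.27 CPM in untreated Smad2 fl/fl. With TGF-β1 it averaged 102.7 CPM in Smad3 fl/fl and 8.31 CPM in MyS3KO, a log2 difference of -3.62 ± 0.67 (adjusted p = 0.000694). Smad3 fl/fl was thus above MyS3KO in both treatments. In the untreated comparison of MyS3KO with Smad3 fl/fl, Ass1, which rebuilds arginine from citrulline, was higher by 1.12. The arginine carriers Slc7a1 and Slc7a2 were called lower in the same comparison, where the Slc7a2 libraries overlapped. With only the groups compared, both of those carrier calls were lost (adjusted p = 0.0892 and 0.235). With TGF-β1, 5 enzymes were higher and 2 lower. In none of the 5 lists did a gene pass the edgeR test with TGF-β1 in MyS2KO, where 3.41% of all tested genes did.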

How the data were processed

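RNA of cultured macrophages was read by poly(A) RNA-seq with 150-base paired reads in 24 libraries, 3 in each of 8 groups named from the labels. The authors deposited 1 table of counts per gene and of FPKM, per the file headers, with the gene length, chromosome, start and end in columns of their own. The submitters' processing notes name the builds mm10 and GRCm38.p6 and the tools TopHat2 2.0.9, Cufflinks 2.1.1 and HTSeq 0.6.1, and whether counting used strand is not given in the sources used here. The deposited FPKM values served only to compare levels between genes. The deposited counts were scaled with TMM and tested with edgeR 4.0.16 (filterByExpr with a minimum count of 10, 1 quasi-likelihood fit of all 24 libraries with 8 group means, 16 residual degrees of freedom), with Benjamini-Hochberg adjustment over 14261 genes and a call at an adjusted p under 0.05. CPM values are TMM-scaled. Depth of 16868501 to 24918582 reads per library sets the precision, and the median biological coefficient of variation was 21.2%. The fit was tested on simulated data first.

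The members, the gene lists and the rule for the genes named were chosen with earlier results of these data known. All 60 members are counted, and 1 with few reads is not reported here by name. Values per library are given for members called in at least 1 comparison within a line and for the 5 of highest FPKM. SE and adjusted p are given for at most 5 called members of largest change in each comparison. At most 4 called genes per list are given with values in each comparison. Of the 26 symbols in the ATF4 list, 1 matched 2 gene identifiers. The alternatives were DESeq2 1.42.0, its size factors, other count filters, the replicate number as a block, a fit of the compared groups alone, and leaving out each library. Smad3 fl/fl replicate 3 and MyS3KO replicate 1 were also each left out in both treatments. Same-numbered treated and untreated libraries deviated together in MyS2KO (correlations of 0.15, 0.22 and 0.41) and Smad3 fl/fl (0.45, 0.34 and 0.33), where the blocked values count as paired. In MyS2KO the highest correlation between libraries of different number, 0.197, exceeded the lowest of these. In MyS3KO the correlations were 0.41, 0.04 and 0.29 and in Smad2 fl/fl 0.05, 0.13 and 0.16, so the split is not sharp. Blocked values there and in the other comparisons are those of an alternative fit, not of a known pairing.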

Additional observations from a re-analysis of the deposited data

How the results depend on the processing

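Across 12 comparisons, members were called 59 times. Of these calls 30 held under every alternative that gave a value, 29 were lost under at least 1, and 0 changed direction. The DESeq2 test kept all 59. Outside the fits that left out a library, counts of called members that moved by more than 1.5 times were those of TGF-β1 in MyS3KO with the replicate number as a block (12 against 7), of Smad3 knockout untreated with only the groups compared (1 against 9) and of the untreated knockouts of the 2 lines with only the groups compared (1 against 2). A fit of only the groups compared holds fewer libraries, and the part of that in these counts was not tested. In the other comparisons the blocked fit gave counts within 1.5 times. It lost the Smad3 knockout calls of Slc1a5, Slc7a2 and Slc7a7 untreated and of Slc7a1, Slc6a6 and Slc38a6 with TGF-β1 (adjusted p = 0.0614 to 0.0999). Over all genes the block called 3237, 1032, 3306 and 2749 genes with TGF-β1 in Smad2 fl/fl, MyS2KO, Smad3 fl/fl and MyS3KO, against 1584, 486, 1714 and 1428 without it. For untreated Smad3 knockout, 1599 genes were called with the block and 256 with only the groups compared, against 2531. For Smad2 knockout, untreated and with TGF-β1, 10 and 60 genes were called, against 161 and 313 without a count filter and 99 and 212 with DESeq2. Outside MyS2KO and Smad3 fl/fl, numbers were taken as shared labels and not as a pairing. The next ranges cover fits without 1 library and fits without Smad3 fl/fl replicate 3 or MyS3KO replicate 1 in both treatments. Called members with TGF-β1 were 8 to 8 in Smad2 fl/fl, 5 to 6 in MyS2KO, 7 to 11 in Smad3 fl/fl and 6 to 8 in MyS3KO. For Smad3 knockout they were 6 to 10 untreated and 4 to 8 with TGF-β1 (against 9 and 9). Between lines they were 6 to 9 for fl/fl and 1 to 2 for knockout libraries (against 2). Both Smad2 knockout comparisons and both interactions had 0 called members under every alternative.

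Alternatives for the pathway lists were chosen after seeing the data. Called in at least 1 comparison were 17 of 25 genes of the ATF4 list, 16 of 34 mTORC1 genes, 14 of 23 synthetase genes, 9 of 15 outside carriers and 13 of 19 enzymes. How many of all tested genes were called in at least 1 comparison was not counted, so these counts have no share beside them. A single comparison, between the untreated fl/fl groups, called 33.4% of all tested genes. With only the groups compared there were 9 synthetase genes and 5 outside carriers, and without a count filter 5 outside carriers. Leaving out libraries as above gave 13 to 19, 14 to 19, 11 to 14, 6 to 10 and 10 to 13 in the order of the lists. The cause of these changes was not tested. Depth limits the 19 members with few reads, which were not tested in the fit reported.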

Other observations

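The 19 members with 1 to 119 reads were not tested, and their reads were spread thinly, at most 21 in a library. Slc36a2, a proton-coupled carrier of glycine and proline, had 54 reads in all. Treated MyS3KO libraries held 2, 13 and 21 of them, while untreated MyS3KO libraries held 0, 0 and 0 and no other library more than 4. Slc38a4, a carrier of neutral and cationic amino acids best known from liver, had 119 reads, with 13, 17 and 10 in treated and 2, 6 and 0 in untreated MyS3KO. Slc6a12, which carries betaine and GABA, had 93 reads, with 13, 9 and 10 in untreated Smad3 fl/fl and 0, 0 and 0 in treated Smad2 fl/fl. Slc7a4, of the cationic carrier family, had 96 reads. These genes were picked out after their values were seen. Without the count filter Slc36a2 passed the edgeR test for TGF-β1 in MyS3KO (adjusted p = 0.00667). Leaving out a library let some of these genes past the filter, and Slc38a4 then passed there without untreated MyS3KO replicate 2 (adjusted p = 0.0335).

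Slc6a19, a sodium-coupled importer of neutral amino acids known from gut and kidney, passed no test but varied between libraries of one genotype. MyS3KO replicate 1 read 16.3 CPM untreated and 12.6 CPM treated, and the other 4 MyS3KO libraries 3.15 to 5.15 CPM. Slc36a4, a relative of Slc36a1 that carries proline and tryptophan, read 26.8, 19.3 and 19.3 CPM in untreated and 27.5, 27.8 and 26.8 CPM in treated Smad2 fl/fl libraries, and passed none of the 12 comparisons. Without MyS3KO replicate 1 in both treatments its difference between the untreated knockouts passed (0.56, adjusted p = 0.0414, against 0.37).

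A further 14 members with few reads, not tested, were Slc1a1 (13 reads in all), Slc1a3 (1), Slc3a1 (24), Slc6a4 (29), Slc6a7 (2), Slc6a13 (46), Slc6a14 (2), Slc6a15 (2), Slc6a16 (2), Slc6a17 (6), Slc6a21 (16), Slc7a14 (6), Slc38a11 (7) and Slc43a1 (15). Of these, none held more than 7 reads in a library.

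Another 4 members were tested, were scarce and passed in none of the 12 comparisons in the edgeR fit. For TGF-β1 in Smad2 fl/fl, Slc7a3 (log2 1.77, adjusted p = 0.0606) did pass with DESeq2 (adjusted p = 0.039), without a count filter (adjusted p = 0.0346) and with the replicate number as a block (adjusted p = 0.0299). The glycine carrier Slc6a9 lay between 0.0936 and 1.47 CPM over the 24 libraries, the cationic carrier Slc7a3 between 0.106 and 2.27, Slc7a13 between 0.184 and 1.03, and Slc36a3 between 0 and 0.789 CPM.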
